A study of Mus musculus with 15 samples.

Results

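The 10 genes described here were higher in Tsc2-deficient tumor cells carrying either shRNA against B7-H3 than in control cells: the lipid flippases ATP9A and ATP8B1, the scaffold GRASP, the ubiquitin ligase CBLC, the enzymes GGT1, DEGS2 and GALNT3, and BSPRY, FAM174B and PRR15L. These 10 genes, of 24891 in the expression table, were chosen by their level in sorted tumor cells, where all rose over the control shRNA with both shRNAs, and no numeric threshold was part of the choice. Their levels in sorted cells are therefore given as a description with no test. The bulk tumors took no part in the choice, and the comparison of bulk tumors is the only test of the 10 genes. These tumors carried shRNAs that the sorted cells also carried, so a difference between the transduced cells would appear in both materials.

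RNA was sequenced from 15 libraries of subcutaneous tumors formed by 105K cells, a Tsc2-deficient mouse renal tumor line, in 5 groups of 3. The bulk tumors expressed either a non-targeting shRNA, sh-NC, or the shRNA against B7-H3 numbered (1), written sh-B7-H3 (1). Sorted cells came from tumors with these same shRNAs and, as a further group, from tumors with sh-B7-H3 (2), which targets another region of the mRNA. They were those left unlabelled when non-tumor cells of dissociated tumors were removed with magnetic beads. The question was what changes in the tumor and in its tumor cells when B7-H3 (CD276), an immune checkpoint protein, is knocked down. All hosts were wild-type C57BL/6J mice, given in the methods as male and 6 weeks old at injection, and all 5 groups shared the loss of Tsc2 and the transduction with an shRNA vector. The transduced cells were puromycin-selected and are described in the methods as heterogeneous pools, and the methods call the 3 libraries of a group biological samples. If any of them came from the same mouse or tumor, p-values measure only the spread between these samples. Separate transductions with the same shRNA are not described, so p-values do not measure the spread between transductions.

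The targeted gene, CD276, followed the labels in part. In FPKM scaled between libraries, CD276 read 34.0, 20.0 and 17.3 in sorted sh-NC, 7.29, 13.96 and 11.5 with sh-B7-H3 (1), and 23.3, 25.4 and 25.7 in the libraries labelled sh-B7-H3 (2). In bulk it read 20.8, 23.2 and 23.5 with sh-NC and 22.3, 17.8 and 24.4 in the libraries labelled sh-B7-H3 (1), so only the sorted sh-B7-H3 (1) libraries lay below their controls. Below, bulk sh-B7-H3 (1) and sorted sh-B7-H3 (2) therefore mean the libraries labelled so, and every direction given for them is that of the labels.

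Several of the 10 genes have known roles in membrane traffic and in enzymes of epithelial cells. P4-ATPases such as ATP9A and ATP8B1 move phospholipids from the outer to the inner leaflet of a membrane and take part in sorting on endosomes and at the apical membrane. GGT1 breaks down glutathione outside the cell and marks the brush border of the kidney tubule, DEGS2 makes phytoceramide for epithelial barriers, and GALNT3 starts mucin-type O-glycosylation in the Golgi. CBLC is the CBL-family ubiquitin ligase of epithelia, which acts on receptor tyrosine kinases, and GRASP (Tamalin) is a PDZ scaffold that binds cytohesins, the exchange factors of ARF GTPases. BSPRY is a B-box and SPRY domain protein that binds 14-3-3 proteins and the epithelial calcium channel TRPV5.

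The genes lie on 8 mouse chromosomes, with ATP9A and GALNT3 both on chromosome 2 and CBLC and FAM174B both on chromosome 7. ATP8B1, CBLC, DEGS2 and PRR15L overlap annotated noncoding or pseudogene entries whose symbols had no match in the table. Start-site windows of 300 bases, 250 before and 50 after an annotated start, were taken from RefSeq (GRCm38.p6). They were used for 7 of the 10 genes, 13 windows in all, and no window of ATP8B1, CBLC or PRR15L was included. The 13 windows were searched on both strands for 4 short motifs bound by factors that act in epithelia, in lysosomal regulation or in the interferon-gamma response. CACCTG, the E-box of ZEB and SNAI repressors, was in 7 of 13 windows, belonging to GALNT3, ATP9A, BSPRY, GGT1 and DEGS2, and in 20.2% of 32851 promoters of the same length. AACNNGTT, bound by grainyhead-like factors, was in 1 window, that of FAM174B, and in 4.20% of all promoters. CACGTG, the E-box of MITF and TFEB, was in 1 window of GGT1 and in 7.15% of all promoters. TTCNNNGAA, the interferon-gamma-activated site bound by STAT factors, was in none of the 13 and in 8.30% of all. No match of one motif overlapped another in the windows shown, several windows of GGT1 and ATP9A belong to the same gene, and a match describes letters and not a binding site. The windows of GALNT3, BSPRY and FAM174B are shown because they carry the largest number of CACCTG matches in a window, a match at the start site and the grainyhead-like match, with each match in capitals. They lie at chr2:66124744-66125043 on the minus strand, chr4:62479812-62480111 on the plus strand and chr7:73740057-73740356 on the plus strand, and each is written 5′ to 3′ along its gene.
GALNT3: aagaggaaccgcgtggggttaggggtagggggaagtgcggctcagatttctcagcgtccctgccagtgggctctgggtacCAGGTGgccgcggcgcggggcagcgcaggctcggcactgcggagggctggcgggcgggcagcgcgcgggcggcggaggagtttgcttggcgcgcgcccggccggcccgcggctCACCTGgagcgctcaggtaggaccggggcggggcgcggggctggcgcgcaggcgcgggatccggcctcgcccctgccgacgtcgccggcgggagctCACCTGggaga
BSPRY: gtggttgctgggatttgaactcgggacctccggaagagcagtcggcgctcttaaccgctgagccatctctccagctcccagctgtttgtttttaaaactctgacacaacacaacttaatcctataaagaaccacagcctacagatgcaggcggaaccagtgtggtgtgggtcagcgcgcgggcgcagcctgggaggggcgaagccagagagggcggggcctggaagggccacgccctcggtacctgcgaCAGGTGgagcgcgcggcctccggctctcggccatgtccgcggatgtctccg
FAM174B: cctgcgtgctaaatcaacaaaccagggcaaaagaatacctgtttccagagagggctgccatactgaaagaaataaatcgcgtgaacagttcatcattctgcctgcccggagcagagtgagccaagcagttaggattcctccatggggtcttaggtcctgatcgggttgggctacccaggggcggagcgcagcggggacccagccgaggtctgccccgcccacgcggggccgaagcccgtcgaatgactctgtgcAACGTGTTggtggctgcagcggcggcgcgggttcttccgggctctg

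In bulk tumors, all 10 genes were higher with sh-B7-H3 (1) than with sh-NC, 3.33- to 7.32-fold in mean level, and in none of them did the groups overlap. All levels are FPKM (fragments normalised to gene length and sequencing depth), scaled between libraries, and 3 values in a row are replicates 1, 2 and 3. Differences are in log2(scaled FPKM + 1), which understates the change of low genes. Tests are limma's, with Benjamini-Hochberg adjusted p over 11800 genes and a threshold of 0.05. Of those genes, 12.8% were called higher and 8.52% lower, and 24.4% were higher with no overlap of the groups. With FPKM as deposited 70.2% of the calls were higher, against 60.1% with scaling and 47.1% after quantile normalization. In bulk tissue, fewer cells of a type and less RNA per cell cannot be told apart.

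**Figure D1:**
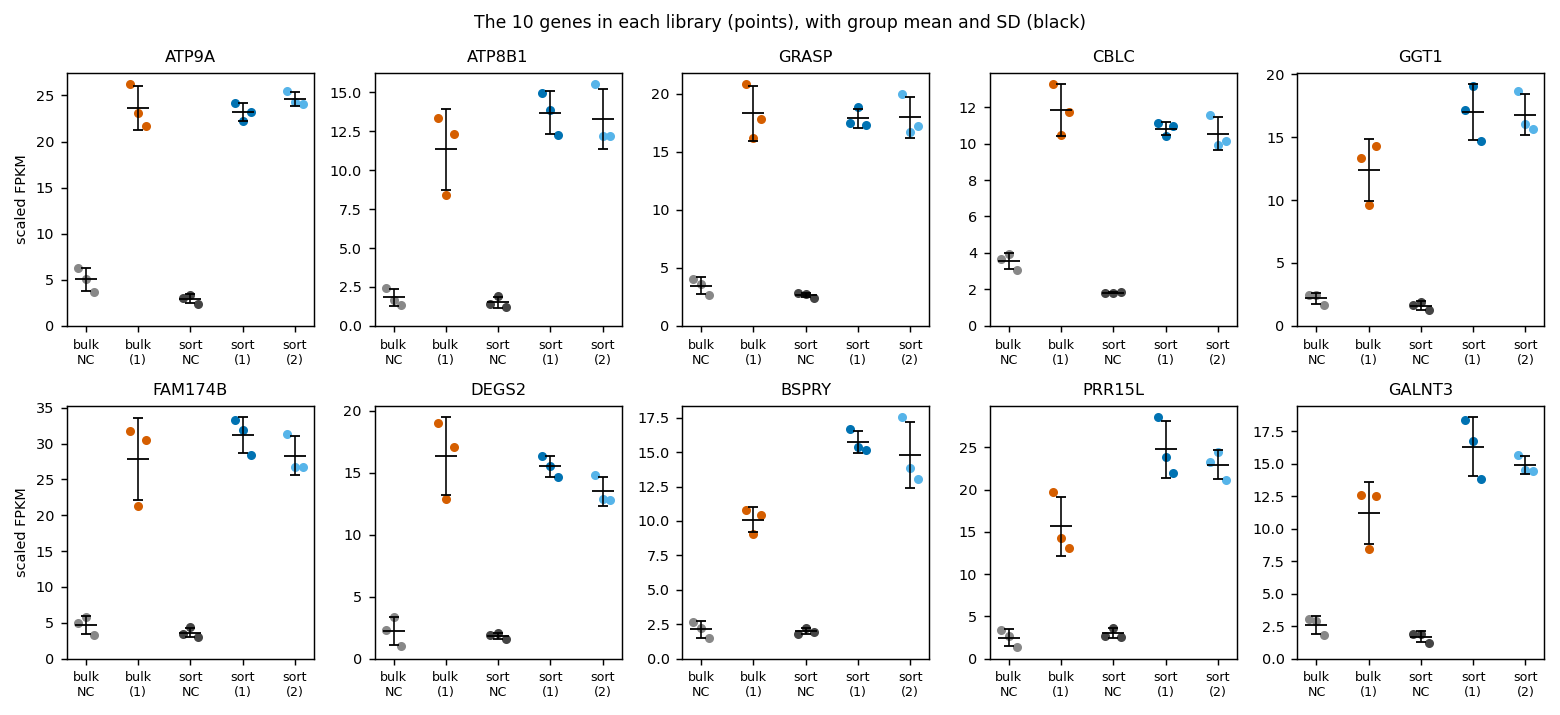
Scaled FPKM (vertical axes, linear, from 0) of the 10 genes in each of the 15 libraries (points), with the mean and SD of each group of 3 in black, for bulk tumors and sorted (sort) cells with sh-NC (NC) or with shRNA (1) or (2) against B7-H3. In every panel all points with an shRNA against B7-H3 lie above all points with sh-NC of the same material, and the sh-NC libraries range from 1.06 to 6.26.

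The flippase ATP9A (chr2:168634438-168742370, GRCm38.p6), which works on endosomes, read 6.26, 5.13 and 3.71 in bulk sh-NC and 26.2, 23.1 and 21.6 in bulk sh-B7-H3 (1). Its lowest sh-B7-H3 (1) library lay 3.46-fold above the highest sh-NC library, and the log2 difference was 2.05 ± 0.17 (SE, n = 3 per group; limma, adjusted p = 0.00212). In sorted cells ATP9A was 3.01, 3.37 and 2.42 with sh-NC. It was 24.1, 22.2 and 23.3 with sh-B7-H3 (1), and 25.5, 24.3 and 24.1 with sh-B7-H3 (2). ATP9A thus stood at much the same level with the shRNAs in either material, while its bulk sh-NC libraries were all above the sorted ones, 1.72-fold in the mean.

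ATP8B1, the flippase of apical membranes, was lower in all groups. Bulk libraries gave 2.45, 1.67 and 1.35 with sh-NC and 13.4, 8.42 and 12.3 with sh-B7-H3 (1), a log2 difference of 2.12 ± 0.21 (SE; limma, adjusted p = 0.00267). Bulk sh-B7-H3 (1) replicate 2 was the low library of its group and still lay 3.43-fold above the highest sh-NC library. Sorted cells gave 1.43, 1.90 and 1.19 with sh-NC, 14.98, 13.9 and 12.3 with sh-B7-H3 (1), and 15.5, 12.2 and 12.2 with sh-B7-H3 (2). The libraries of the 2 shRNAs interleaved.

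For GRASP (chr15:101224207-101232756), the cytohesin scaffold, bulk sh-NC libraries read 4.07, 3.63 and 2.63 and bulk sh-B7-H3 (1) libraries 20.9, 16.2 and 17.9. This gene had the widest gap between its bulk groups, with the lowest sh-B7-H3 (1) library 3.98-fold above the highest sh-NC library, and the lowest adjusted p of the 10 (0.00195, limma), at a log2 difference of 2.13 ± 0.15 (SE). Its sorted levels were 2.83, 2.72 and 2.44 with sh-NC, 17.5, 18.9 and 17.3 with sh-B7-H3 (1), and 20.0, 16.7 and 17.2 with sh-B7-H3 (2). A noncoding RNA, A330009N23Rik, overlaps 980 bases of the GRASP gene. It averaged 0.31 scaled FPKM in bulk sh-NC and 0.80 in bulk sh-B7-H3 (1). In sorted cells it averaged 0.09 with sh-NC, 0.56 with sh-B7-H3 (1) and 0.62 with sh-B7-H3 (2), so it was higher in the groups where GRASP was. Whether the overlapping genes shared reads was not tested.

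CBLC (chr7:19779718-19796809), the epithelial ubiquitin ligase, had the smallest difference of the 10 in both materials. In bulk tumors it read 3.65, 3.93 and 3.09 with sh-NC and 13.3, 10.5 and 11.7 with sh-B7-H3 (1), a log2 difference of 1.49 ± 0.12 (SE; limma, adjusted p = 0.00212). Sorted sh-NC libraries were nearly equal, at 1.82, 1.81 and 1.86, against 11.1, 10.4 and 11.0 with sh-B7-H3 (1) and 11.6, 9.91 and 10.2 with sh-B7-H3 (2). The bulk sh-NC mean of CBLC was 1.94-fold the sorted one, the largest such ratio, and these libraries did not overlap, while with sh-B7-H3 (1) bulk and sorted levels did.

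Among the enzymes, GGT1 (γ-glutamyltransferase, chr10:75561076-75586193) read 2.43, 2.46 and 1.68 in bulk sh-NC and 13.3, 9.62 and 14.3 in bulk sh-B7-H3 (1), a 5.66-fold ratio of means (limma, adjusted p = 0.00225). Sorted cells gave 1.64, 1.93 and 1.28 with sh-NC, 17.2, 19.1 and 14.7 with sh-B7-H3 (1) and 18.7, 16.0 and 15.7 with sh-B7-H3 (2). GGT1 had the largest rise of the 10 in sorted cells, 10.4-fold over both shRNAs, and every sorted sh-B7-H3 (1) library lay above every bulk one.

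DEGS2 (chr12:108686792-108702306), the sphingolipid hydroxylase, had the largest difference in bulk tumors, 2.47 ± 0.28 on the log2 scale (SE; limma, adjusted p = 0.00345). It was 2.28, 3.35 and 1.06 with sh-NC and 19.0, 12.9 and 17.1 with sh-B7-H3 (1), and its sh-NC libraries had the widest spread of the 10, a coefficient of variation of 51.5%. In sorted cells it was 1.87, 2.05 and 1.56 with sh-NC, 16.4, 15.6 and 14.7 with sh-B7-H3 (1), and 14.8, 12.9 and 12.8 with sh-B7-H3 (2). The DEGS2 gene shares 1725 bases with Evl, and whether reads were counted by strand is not given in the sources used here. EVL averaged 21.1 in bulk sh-NC and 23.2 in bulk sh-B7-H3 (1). In sorted cells it averaged 15.3 with sh-NC, 12.3 with sh-B7-H3 (1) and 12.9 with sh-B7-H3 (2). The part of shared reads in the DEGS2 levels was not tested.

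GALNT3 (chr2:66082766-66125056), the O-glycosyltransferase, read 3.04, 2.90 and 1.84 in bulk sh-NC and 12.6, 8.43 and 12.5 in bulk sh-B7-H3 (1), 4.31-fold higher in the mean (limma, adjusted p = 0.00346). Its gap in bulk tumors was among the narrower, 2.77-fold from the highest sh-NC to the lowest sh-B7-H3 (1) library. Sorted levels were 1.93, 1.92 and 1.20 with sh-NC, 18.3, 16.7 and 13.9 with sh-B7-H3 (1), and 15.7, 14.5 and 14.5 with sh-B7-H3 (2). With sh-B7-H3 (1) all sorted libraries of GALNT3 exceeded all bulk ones, as for GGT1, BSPRY and PRR15L.

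BSPRY (chr4:62480011-62497300), the 14-3-3 binding protein, had the lowest bulk mean with sh-B7-H3 (1), from 10.8, 9.04 and 10.4, against 2.67, 2.22 and 1.49 with sh-NC (log2 difference 1.84 ± 0.16, SE; limma, adjusted p = 0.00226). Sorted cells read 1.80, 2.23 and 1.91 with sh-NC, 16.7, 15.4 and 15.2 with sh-B7-H3 (1), and 17.5, 13.8 and 13.0 with sh-B7-H3 (2). FAM174B (chr7:73740307-73776919), a membrane protein, was the highest of the 10 with an shRNA against B7-H3. It read 4.95, 5.87 and 3.30 in bulk sh-NC and 31.8, 21.3 and 30.5 in bulk sh-B7-H3 (1), a log2 difference of 2.34 ± 0.22 (SE; limma, adjusted p = 0.00245). Its sorted levels were 3.50, 4.35 and 3.09 with sh-NC, 33.3, 31.9 and 28.4 with sh-B7-H3 (1), and 31.4, 26.8 and 26.8 with sh-B7-H3 (2).

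PRR15L (chr11:96926161-96937833), a proline-rich protein, was 3.40, 2.67 and 1.41 in bulk sh-NC and 19.7, 14.3 and 13.1 in bulk sh-B7-H3 (1), 6.29-fold higher in the mean (limma, adjusted p = 0.00308). Sorted cells gave 2.72, 3.68 and 2.58 with sh-NC, 28.5, 23.8 and 22.0 with sh-B7-H3 (1), and 23.3, 24.4 and 21.1 with sh-B7-H3 (2). It was the only gene of the 10 with a lower mean in bulk than in sorted sh-NC (0.832-fold), and it had the lowest bulk-to-sorted ratio with sh-B7-H3 (1), 0.633-fold.

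Over the 10 genes the bulk log2 difference ran from 1.49 to 2.47 with a median of 2.09, against a median of 0.02 over all genes tested. The 10 genes ranked between 34 and 242 of 11800 by that difference. With each bulk library left out in turn all 10 remained above the threshold, with differences of 1.41 to 2.72. The plot of the bulk distribution shows the 10 on its upper flank.

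**Figure D2:**
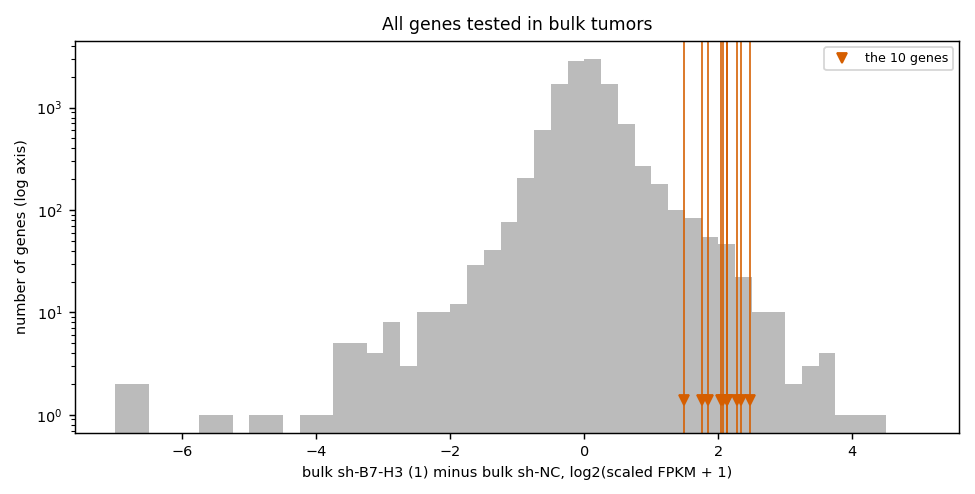
Number of genes (vertical axis, log scale) by difference between bulk sh-B7-H3 (1) and bulk sh-NC in log2(scaled FPKM + 1) (horizontal axis, bins of 0.25), for the 11800 genes tested, with the 10 genes as orange lines and triangles. The 10 lie between 1.49 and 2.47, to the right of a distribution centred on 0.02.

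In sorted cells, the contrast that chose them, the 10 genes differed from sh-NC by 2.06 to 2.80 on the log2 scale with sh-B7-H3 (1), by 2.03 to 2.77 with sh-B7-H3 (2), and by 2.04 to 2.77, with a median of 2.59, with both as a group of 6. All 10 had non-overlapping groups. Among all genes tested 9.03% were called higher with sh-B7-H3 (1), 11.7% with sh-B7-H3 (2), and 12.6% higher and 7.92% lower with both, and 13.6% were higher with no overlap over both. Nothing is read from these shares for the 10, since the same values chose them. The share of calls that were higher with both shRNAs was 61.4%, against 86.4% with FPKM as deposited, where the median of all genes moved to 0.20, and 47.5% after quantile normalization.

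**Figure D3:**
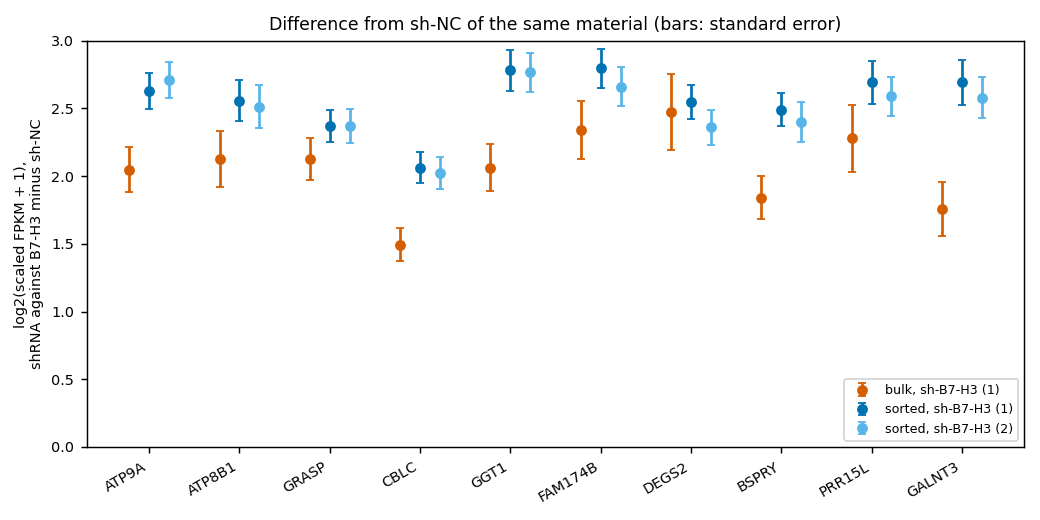
Difference from sh-NC of the same material in log2(scaled FPKM + 1) (vertical axis) for each of the 10 genes, in bulk tumors with sh-B7-H3 (1) and in sorted cells with each of the shRNAs, with standard errors from the limma fit. The points with the 2 shRNAs in sorted cells lie close together for every gene, and the bulk point is the lowest of the 3 for 9 genes, all but DEGS2.

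The 2 shRNAs gave like levels: the ratio of the sorted means, sh-B7-H3 (1) over (2), ran from 0.942 for ATP9A to 1.15 for DEGS2, and the 6 libraries overlapped between shRNAs for 10 of 10 genes. The 10 genes were high both in the libraries where CD276 RNA was below sh-NC and in those labelled sh-B7-H3 (2), where it was not. Since they were chosen for a rise with both shRNAs in sorted cells, nothing is read from this.

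Between materials, the bulk sh-NC mean was 0.832 to 1.94 times the sorted sh-NC mean, with overlapping libraries for 8 of the 10 genes (not ATP9A and CBLC). With sh-B7-H3 (1) the ratio was 0.633 to 1.09, with overlap for 6 of 10. These ratios are descriptions with no test.

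Within groups, the 10 genes rose and fell together. Bulk sh-NC replicate 3 was the lowest of its group for 10 of 10 genes, and bulk sh-B7-H3 (1) replicate 2 for 8 of 10. The same 2 libraries held the largest shares of their summed FPKM in MIR6236, 79.7% and 74.4%, and the part of that in the order was not tested. In sorted sh-NC, replicate 2 had the highest share of its group, 51.6%, and the highest level for 7 of the 10 genes. Without these 2 libraries, a choice made after the data were seen, all 10 genes were still called higher, by 1.496 to 2.33 on the log2 scale. Over all 15 libraries the Pearson correlation between pairs of the 10 was 0.921 to 0.996 (median 0.981, 45 pairs). These libraries include the sorted ones that chose the genes, so a high value there was built into the choice. Pairs of other genes were not computed for comparison. For deviations from the group means it was 0.532 to 0.936 (median 0.764), and positive in 45 of 45 pairs. The pairs share libraries and depth.

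The genes whose log2 levels followed the mean of the 10 most closely over the 15 libraries were EPB41L4B (Pearson r = 0.996), the choline transporter SLC44A4 (r = 0.994), the small GTPase RAB25 (r = 0.993), the desmosomal plakophilin PKP3 (r = 0.993) and the tight junction protein MARVELD3 (r = 0.992). The 15 libraries include the sorted ones that chose the 10 genes. A gene with a clear rise in those libraries scores high for that reason, and nothing further is read from the ranking.

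The close relatives of the 10 genes did not show such differences. Of 9 relatives tested in bulk tumors only CBL passed, at 0.50 ± 0.11 (SE; limma, adjusted p = 0.0239), and with FPKM as deposited 0 of 9 did, also at an unadjusted p under 0.05. ATP9B, the relative of ATP9A, averaged 14.3 in bulk sh-NC and 14.2 in bulk sh-B7-H3 (1) (log2 difference 0.00 ± 0.11, adjusted p = 0.997, limma). DEGS1, the main dihydroceramide desaturase, was far more abundant than DEGS2 and averaged 146 and 128 (−0.19 ± 0.09, adjusted p = 0.175, limma). The other relatives tested in bulk, ATP8B2, CYTIP, CBLB, FAM174A, PRR15 and GALNT6, had differences of −0.13 to 0.34, and GGT5 averaged 0.66 and 0.47 and was too low to test. In sorted cells 0 of 8 relatives passed by limma, with 1 lower at an unadjusted p under 0.05, and 1 was called lower after quantile normalization.

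**Figure D4:**
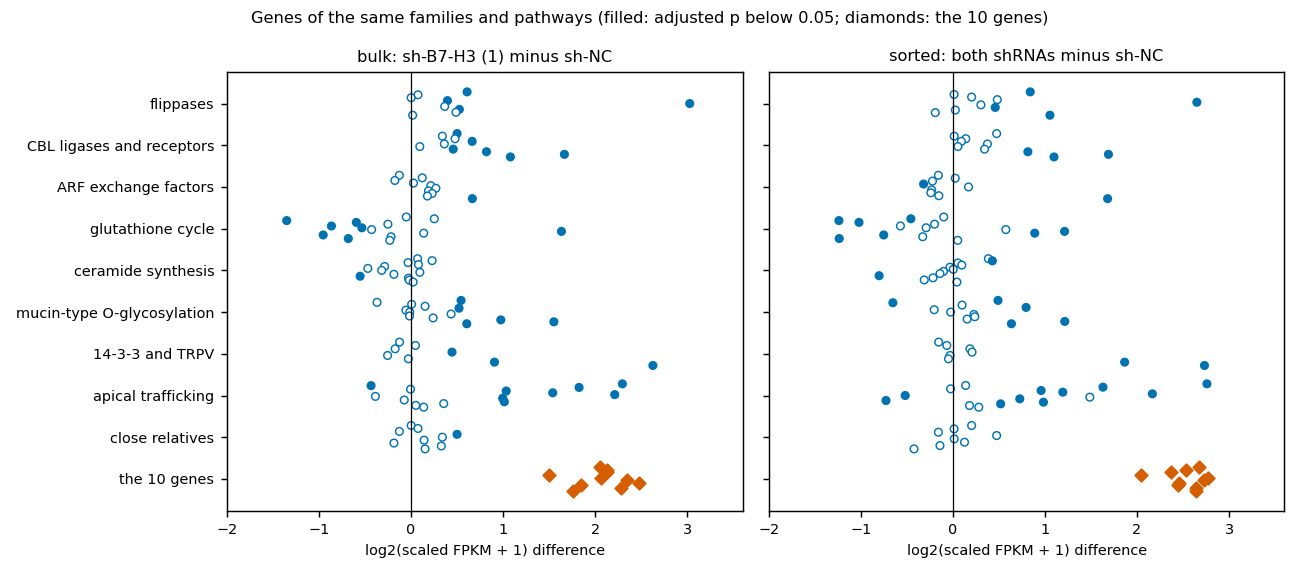
Difference in log2(scaled FPKM + 1) (horizontal axes) of genes in 8 families or pathways of the 10 genes and of their close relatives (rows), in bulk tumors (left) and in sorted cells with both shRNAs (right), filled where limma's adjusted p was below 0.05, with the 10 genes as diamonds. The diamonds lie between 1.49 and 2.77, and most of the circles lie near 0.

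In the families the differences were uneven. Of the other flippases and their subunits, 4 of 9 tested were higher in bulk and 4 of 10 in sorted cells, with 0 lower, also at an unadjusted p under 0.05. The bulk count was 1 with FPKM as deposited and 2 after quantile normalization. ATP10B, a lysosomal lipid flippase, averaged 3.72 and 38.4 in bulk sh-NC and sh-B7-H3 (1) (3.03 ± 0.38, limma, adjusted p = 0.00452), more than either ATP9A or ATP8B1. ATP8A1 was also higher in bulk (0.61 ± 0.15, limma, adjusted p = 0.03), but not with FPKM as deposited. TMEM30B is a subunit that many P4-ATPases, ATP8B1 among them but not ATP9A, pair with to leave the endoplasmic reticulum. It was too low to test in bulk. In sorted cells it averaged 0.13 with sh-NC and 1.25 and 1.45 with the shRNAs (1.05 ± 0.11, limma, adjusted p = 5.71e-05). It thus reached the limit of 1 for testing only through the shRNA groups. The more abundant subunit TMEM30A averaged 40.8 in both bulk groups. In sorted cells TMEM30A averaged 61.6 with sh-NC and 65.8 and 44.3 with the shRNAs (−0.19 ± 0.19, limma, adjusted p = 0.542).

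Around CBLC, 6 of 10 CBL ligases, adaptors and receptor kinases were higher in bulk and 3 of 10 in sorted cells, with 0 lower in either. The bulk count was 2 with FPKM as deposited. The receptor ERBB3 averaged 2.71 in bulk sh-NC and 10.8 in bulk sh-B7-H3 (1) (1.66 ± 0.21, limma, adjusted p = 0.00464), MET 5.34 and 12.4, and ERBB2 5.40 and 10.3. Around GRASP, 1 of 10 cytohesins and ARF6 exchange factors was higher in bulk, PSD4 (2.80 and 5.10; 0.67 ± 0.16, limma, adjusted p = 0.0311), an exchange factor of ARF6, and with FPKM as deposited 0 were. In sorted cells PSD4 was higher (1.68 ± 0.12, limma, adjusted p = 6.16e-06) and CYTH3, a cytohesin, lower (−0.32 ± 0.09, limma, adjusted p = 0.0319), and with FPKM as deposited CYTH3 did not pass.

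Among the other genes of glutathione turnover more were lower than higher. In bulk 1 of 14 was higher and 6 lower, and in sorted cells 2 were higher and 5 lower of 14. With FPKM as deposited 2 were lower in bulk. OPLAH, which hydrolyses 5-oxoproline, averaged 3.77 in bulk sh-NC and 0.86 in bulk sh-B7-H3 (1) (−1.35 ± 0.15, limma, adjusted p = 0.00345). SLC7A11, the cystine transporter, averaged 4.08 in sorted sh-NC and 1.30 and 1.01 with the shRNAs (−1.24 ± 0.12, limma, adjusted p = 5.09e-05). The member that rose with GGT1 in both was ANPEP, a brush border peptidase that acts after it, at 22.4 and 71.98 in bulk (1.63 ± 0.26, limma, adjusted p = 0.00817).

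DEGS2 was likewise not followed by the rest of its pathway. Of 13 other genes of ceramide and sphingolipid synthesis 0 were higher and 1 lower in bulk, UGCG, the glucosylceramide synthase (94.2 and 63.8; −0.55 ± 0.13, limma, adjusted p = 0.0265), which did not pass under either other scaling. At an unadjusted p under 0.05 the counts were 0 and 4. In sorted cells 1 of 12 was higher, SPTLC2 (0.43 ± 0.11, limma, adjusted p = 0.0172), and 1 lower, again UGCG. Of the other O-glycosylation genes around GALNT3, 5 of 13 were higher and 0 lower in bulk, and 4 higher and 1 lower of 11 in sorted cells. With FPKM as deposited 2 were higher in bulk. ST6GALNAC2, which adds sialic acid to the first sugar, averaged 14.9 and 46.9 in bulk (1.55 ± 0.24, limma, adjusted p = 0.00777). GALNT7 was higher in sorted cells (0.79 ± 0.15, limma, adjusted p = 0.00355) and GALNT2 lower (−0.65 ± 0.13, limma, adjusted p = 0.00407), the latter not with FPKM as deposited.

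Around BSPRY, 3 of 8 genes of the 14-3-3 family and its calcium channels were higher in bulk and 2 of 8 in sorted cells. TRPV6, a calcium channel of epithelia, averaged 11.6 in bulk sh-NC and 75.2 in bulk sh-B7-H3 (1), a difference of 2.63 ± 0.32 (SE; limma, adjusted p = 0.00418). The epithelial 14-3-3 protein SFN averaged 3.18 in sorted sh-NC and 13.6 and 14.8 with the shRNAs (1.86 ± 0.11, limma, adjusted p = 1.73e-06), and YWHAH, another 14-3-3 protein, passed in bulk (0.44 ± 0.13, limma, adjusted p = 0.0469) but not with FPKM as deposited. Of the genes of apical trafficking, which hold none of the 10, 7 of 14 were higher and 1 lower in bulk, and 8 of 15 were higher and 2 lower in sorted cells. RAB25 averaged 5.56 and 30.4 in bulk (2.29 ± 0.22, limma, adjusted p = 0.00267), its motor partner MYO5B 0.94 and 8.20, and RAB27B 2.27 and 10.8.

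Epithelial markers were read in the same libraries. Of 24 epithelial markers 23 were tested, and 18 were higher with 0 lower in bulk (median difference 1.39), while 20 were higher with 0 lower in sorted cells (1.72). EPCAM read 25.8, 25.0 and 12.8 in bulk sh-NC and 141, 90.0 and 182 in bulk sh-B7-H3 (1), a pattern like that of the 10 genes. CDH1, which encodes E-cadherin, read 202, 173 and 183 against 178, 142 and 193, and its difference (−0.13 ± 0.14, limma, adjusted p = 0.518) changed sign after quantile normalization. In sorted cells CDH1 averaged 276 with sh-NC and 212 and 181 with the shRNAs (−0.46 ± 0.17, limma, adjusted p = 0.0854), opposite in direction to most epithelial markers. At an unadjusted p under 0.05, 22 epithelial markers were higher and 1 lower in sorted cells. The mesenchymal filament gene VIM fell in bulk, from 1075, 1226 and 1282 to 413, 591 and 516 (−1.25 ± 0.16, limma, adjusted p = 0.00504). Of the mesenchymal markers, 2 were higher and 3 lower of 10 tested in bulk, and 0 higher and 5 lower of 7 in sorted cells.

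Markers of other cell types differed between the bulk groups as well. The summed level of 12 skeletal muscle markers was 5.51, 28.7 and 7.91 in bulk sh-NC and 54.8, 870 and 276 in bulk sh-B7-H3 (1), with 8 of 10 tested higher. Bulk sh-B7-H3 (1) replicate 2, with the highest muscle sum, was the library in which 8 of the 10 genes were lowest. In sorted cells the muscle sums were 78.3 to 133 with sh-NC and 53.0 to 122 with the shRNAs against B7-H3. The 10 fibroblast markers summed to 108 to 192 in bulk sh-NC and 303 to 704 in bulk sh-B7-H3 (1), with 5 of 8 tested higher, and 10 T cell markers to 2.81 to 3.20 and 6.85 to 22.9. In sorted cells the fibroblast sums were 48.5 to 112 with sh-NC, 66.5 to 107 with sh-B7-H3 (1) and 137 to 176 with sh-B7-H3 (2), so those of sh-B7-H3 (2) lay above the controls. The T cell sums were 0.551 to 0.954 in sorted sh-NC, 1.38 to 1.64 with sh-B7-H3 (1), and 25.8, 2.17 and 1.92 with sh-B7-H3 (2). Keratinocyte markers (11 in the table) summed to 4.46 to 6.36 in bulk sh-NC and 10.1 to 18.1 in bulk sh-B7-H3 (1), and to 3.92 to 8.26 in sorted sh-NC and 12.5 to 29.1 with the shRNAs against B7-H3. Kidney tubule markers (12) summed to 150 to 171 and 231 to 407 in bulk, and to 149 to 204 and 215 to 339 in sorted cells, so that neither list overlapped between the groups in either material. Single genes weighed heavily in both sums. KRT14 averaged 2.38 in bulk sh-NC and 9.75 in bulk sh-B7-H3 (1), and UMOD 11.1 and 105. Of the 11 keratinocyte markers, 7 stayed below 0.1 in every bulk sh-NC library and 6 in every bulk sh-B7-H3 (1) library. Of 6 kidney tubule markers tested in sorted cells, 1 was higher and 1 lower. Leukocyte, macrophage and endothelial sums overlapped between the bulk groups. The part of these markers' cell types in the differences of the 10 genes was not tested.

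Among the sorted libraries, sh-B7-H3 (2) replicate 1 stood apart in markers of non-tumor cells. Its 10 leukocyte markers summed to 237, against 12.1 to 17.2 in the other sorted libraries. Its 10 macrophage markers summed to 878, against 132 in each of the other sh-B7-H3 (2) libraries, 145 to 167 with sh-B7-H3 (1) and 64.3 to 69.4 with sh-NC. Macrophage sums were thus higher with either shRNA against B7-H3 than with sh-NC in sorted cells. Of 7 macrophage markers tested, 3 were higher, CSF1R, CD68 and CD14, and C1QA, C1QB, C1QC and LYZ2 were not. C1QA averaged 1.98 in sorted sh-NC and 2.64 with sh-B7-H3 (1), and LYZ2 4.52 and 3.55. The part of these markers in the levels of the 10 genes was not tested. Replicate 1 of sh-B7-H3 (2) had the highest level of its group for 9 of the 10 genes. Without it the differences of the 10 from sh-NC over both shRNAs were 2.02 to 2.75.

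**Figure D5:**
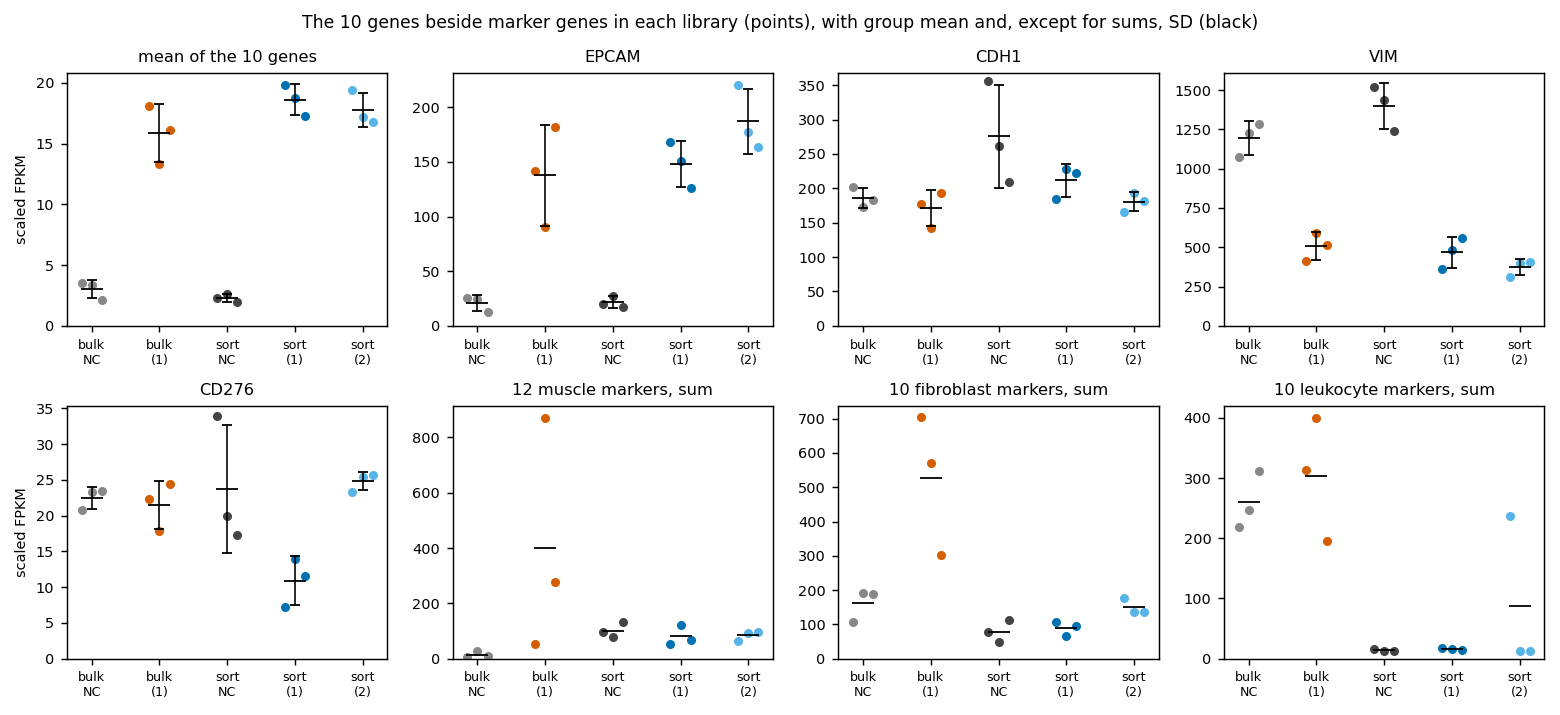
Scaled FPKM (vertical axes, linear, from 0) in each of the 15 libraries (points) with the group mean in black and, except for the sums, the SD: the mean of the 10 genes, EPCAM, CDH1, VIM, CD276, and summed muscle, fibroblast and leukocyte markers. The mean of the 10 genes and EPCAM are high in every library with an shRNA against B7-H3, VIM is low there, CDH1 overlaps between the bulk groups, and muscle markers are highest in bulk sh-B7-H3 (1) replicate 2 (870).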

How the data were processed

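RNA-seq of 15 libraries in 5 groups was analysed from the deposited table of 24917 entries. The authors deposited FPKM under a name that speaks of counts. A further deposited table holds log2(FPKM + 1) of 1000 genes, matched the larger one for 999 and was used only as a check. The submitters' processing notes give the build mm10, while aligner, annotation and strand setting are not given in the sources used here. The methods name the VIPER pipeline. Library and RNA kits differ between the labels and the methods.

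Entries with date-like symbols (26) were left out. FPKM were scaled between libraries (median of ratios, 9872 genes), because MIR6236 held 6.01% to 79.7% of a library. Genes with at least 1 scaled FPKM in 3 libraries of a comparison were tested on log2(scaled FPKM + 1), a pseudocount of 1, with limma-trend (limma 3.58.1 in R 4.3.3), using only the groups compared. The test assumed FPKM from the start and was tested on simulated data. Read totals are not in the table. The spacing of low values gave depths of 0.468 to 1 relative to sorted sh-NC replicate 1, so low values are less precise in shallower libraries. Replicates of a group correlated at 0.907 to 0.986 over 12068 genes.

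The 10 genes, the gene lists and the tests were chosen with earlier results of these data known. From each family list, at most 3 genes past the threshold were named, by size of difference in sorted cells, with the relatives, the 5 most alike genes, CD276, EPCAM, CDH1 and VIM. Alternatives were other scalings, pseudocounts and filters, a shared fit, a replicate block and leaving out each library.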

Additional observations from a re-analysis of the deposited data

How the results depend on the processing

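All 10 genes were called higher in bulk tumors in each of the 14 alternatives, with differences of 1.39 to 2.94 on the log2 scale and adjusted p of at most 0.0213 (limma). The count of all genes changed in bulk, 2520, moved to 961 with FPKM as deposited, where the cause was not tested. Leaving out each bulk library in turn gave 546 to 3793: 1362, 1053 and 782 without sh-NC replicates 1, 2 and 3, and 546, 3793 and 1658 without sh-B7-H3 (1) replicates 1, 2 and 3. The sorted count over both shRNAs, 2344, ran from 1414 (without sh-NC replicate 2) to 2584 when each sorted library was left out in turn, and was 3197 with all groups in 1 fit.

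With the replicate number as a block, the count of genes changed in bulk was 1413, and the 10 genes stayed called. Deviations of same-numbered libraries correlated at −0.449 to 0.391 between the bulk groups and at −0.469 to 0.0783 between sorted sh-NC and either shRNA. With 3 libraries per group, these values cannot settle whether same-numbered libraries were paired. Between the 2 shRNAs in sorted cells, which were not tested against each other, the correlation was 0.211 to 0.223. In sorted cells the differences of the 10 were 2.48 to 3.32 with a pseudocount of 0.1, against 2.04 to 2.77 with 1. Depth in reads is unknown, so no counting interval is given for the low sh-NC levels. Antisense and overlapping genes were not separable by strand.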
